A study of Homo sapiens with 9 samples.

Results

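The genes described here are the subunits of the transcription factor NF-kB and a set of genes that hold it in check or act upstream of it, measured by RNA-seq in OVCA433 cells. They were 10 of the 58676 genes in the count table, taken by symbol: the subunits NFKB1, NFKB2, REL, RELA and RELB, and the regulators NFKBIA, NFKBIE, TNFAIP3, BIRC3 and TNF. OVCA433 is an established human line labelled as ovarian serous adenocarcinoma. The series asked what follows when MPZL3, a gene for a membrane protein with an immunoglobulin-like domain, is knocked down in it. Control cells carried a control vector (labelled WT in genotype), and the knockdown cells carried 1 of a pair of hairpins against MPZL3, shRNA#1 (sh1) or shRNA#3 (sh3), all delivered by lentivirus. Each group had 3 libraries, marked replicate A, B and C in the labels, which do not say whether a letter stands for a shared day or preparation. The methods call the control of this line an empty vector in one place and mention a scrambled hairpin in another, and they call the replicates biological, so p-values here rest on cultures of 1 line. Both hairpins were also read as 1 knockdown arm of 6 libraries, as the methods group them. The spread in that pooled fit also holds the difference between the hairpins. In fits without a term for the letter, the spread also holds differences between letters.

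NF-kB is a dimer of Rel-family proteins. NFKB1 and NFKB2 encode precursors that are cut into DNA-binding subunits, whereas RELA, REL and RELB carry the domains that activate transcription. In resting cells IkB proteins, such as those encoded by NFKBIA and NFKBIE, keep the dimers in the cytoplasm until a kinase complex (IKK) marks them for destruction. Many genes of the circuit are themselves transcribed by NF-kB, among them NFKBIA, TNFAIP3 (which encodes the ubiquitin-editing enzyme A20, a brake on the pathway), BIRC3 (an inhibitor-of-apoptosis ubiquitin ligase), NFKB2, RELB and TNF, and their RNA can therefore follow the activity of the factor with little delay. In epithelial ovarian tumors the pathway is known for driving cytokine and chemokine genes.

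NF-kB binds kB elements, so promoters are shown first, for the regulators whose RNA differed most between libraries (NFKBIA, TNFAIP3 and BIRC3) and for NFKB1, the subunit that rose with both hairpins. The sequences are RefSeq promoter windows on GRCh38.p14, 250 bases before to 50 bases after the RefSeq gene start, written 5′ to 3′ on the gene's strand. The RefSeq start is not always the start given for the gene in the count table. Capitals mark bases that match the kB consensus on either strand.
NFKBIA, chr14:35404700-35404999, minus strand: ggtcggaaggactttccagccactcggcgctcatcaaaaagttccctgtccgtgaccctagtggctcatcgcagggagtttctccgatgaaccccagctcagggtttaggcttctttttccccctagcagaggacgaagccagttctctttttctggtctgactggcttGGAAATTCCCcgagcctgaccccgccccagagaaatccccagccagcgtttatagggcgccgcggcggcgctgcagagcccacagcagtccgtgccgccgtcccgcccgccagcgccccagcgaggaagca
TNFAIP3, chr6:137867009-137867308, plus strand: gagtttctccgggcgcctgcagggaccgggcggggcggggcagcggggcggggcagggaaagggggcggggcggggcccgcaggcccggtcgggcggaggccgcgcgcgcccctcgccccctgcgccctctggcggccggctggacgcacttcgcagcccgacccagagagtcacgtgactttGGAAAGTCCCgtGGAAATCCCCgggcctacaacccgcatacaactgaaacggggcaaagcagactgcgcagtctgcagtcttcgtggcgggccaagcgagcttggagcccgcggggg
BIRC3, chr11:102317234-102317533, plus strand: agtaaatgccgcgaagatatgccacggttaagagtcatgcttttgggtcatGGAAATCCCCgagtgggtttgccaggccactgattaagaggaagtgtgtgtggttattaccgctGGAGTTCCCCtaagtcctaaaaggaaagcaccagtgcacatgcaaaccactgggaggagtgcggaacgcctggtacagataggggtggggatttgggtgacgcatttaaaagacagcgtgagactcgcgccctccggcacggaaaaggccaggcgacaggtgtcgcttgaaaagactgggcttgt
NFKB1, chr4:102501109-102501408, plus strand: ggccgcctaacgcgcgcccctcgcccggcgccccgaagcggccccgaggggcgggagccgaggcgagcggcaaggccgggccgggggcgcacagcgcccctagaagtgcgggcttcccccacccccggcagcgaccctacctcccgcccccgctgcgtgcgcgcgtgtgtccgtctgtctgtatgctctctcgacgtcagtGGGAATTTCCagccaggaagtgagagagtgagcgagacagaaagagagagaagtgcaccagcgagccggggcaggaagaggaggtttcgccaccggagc
The kB consensus, in its usual 10-base form with a run of G bases at one end and of C bases at the other, was searched on both strands, and overlapping matches were counted singly. Of the 10 genes, 8 (all but RELB and NFKBIE) had a window, and 5 of these 8 windows (62.5%) held a match, against 11.3% of all 35116 promoter windows of the same length. NFKBIA and NFKB1 held 1 match each, and TNFAIP3, BIRC3 and REL held 2 each, those of REL overlapping by all but 1 base. In NFKB1 the match lay at positions -49 to -40 from the RefSeq gene start, in NFKBIA at -81 to -72, in TNFAIP3 at -67 to -58 and -55 to -46, and in BIRC3 at -199 to -190 and -135 to -126. The windows of NFKB2, RELA and TNF held none, which says only that these letters were not in those windows. A looser form of the consensus was present in 14% of all windows and in the same 5 members.

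Library totals ranged from 16850854 to 23890191 counts, and 15975 genes passed the filter on low counts. MPZL3, the targeted gene, was at 19.51 ± 3.42 CPM (read counts scaled by effective library size; SD, n = 3) in control, 1.885 ± 0.0926 with sh1 and 1.575 ± 0.514 with sh3. The cell type label was checked against 12 serous epithelial markers, of which WT1 was at 0 in all 9 libraries. The summed level of the 12 was 11870 to 14790 CPM in control and 5261 to 6817 CPM in the knockdown libraries, where MUC16 was at 0 and the means of CDH1 were 0.112 and 0.1484 CPM, against 275.3 CPM in control. PAX8 was the only epithelial marker that rose, and 8 of the 11 tested fell. The summed level of 12 mesenchymal markers was 1620 to 2092 CPM in control and 6177 to 14580 CPM in the knockdown libraries, and 11 of them rose. The 12 immune markers summed to at most 2.857 CPM in any library, with MS4A1 and HBB at 0 in all. Both the epithelial and the mesenchymal lists therefore moved with every difference between knockdown and control given below, and their part in it was not tested. In RNA from whole cultures, fewer cells of a kind and less RNA per cell cannot be told apart.

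Levels of different genes are compared per kilobase of the gene length in the count table. In control, RELA was the most abundant member at 21.7 ± 1.6 CPM per kb (SD, n = 3), followed by NFKBIA at 19.9 ± 6.85, TNFAIP3 at 15.1 ± 2.46, NFKB2 at 12.4 ± 1.9 and NFKBIE at 11.1 ± 1.02 CPM per kb. Each of these 5 overlapped its neighbour in the order, library by library, so the order among neighbours was not resolved. NFKB1 came next at 9.02 ± 0.538 CPM per kb, below the range of NFKBIE. RELB at 6.27 ± 1.49 and BIRC3 at 4.25 ± 1.46 CPM per kb overlapped each other. REL, the subunit best known from lymphocytes, was at 0.775 ± 0.116 CPM per kb, and TNF was near 0. In the knockdown libraries NFKBIA led the order, at 24.3 ± 8.44 CPM per kb with sh1 and 21.8 ± 8.37 with sh3, overlapping RELA at 20.6 ± 2.42 and 19.1 ± 1.95. NFKB1 moved up to the third place with both hairpins, at 10.9 ± 0.279 CPM per kb with sh1 (where its range overlapped that of NFKBIE) and 14.2 ± 1.54 with sh3 (where it stood apart from its neighbours in the order).

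**Figure D1:**
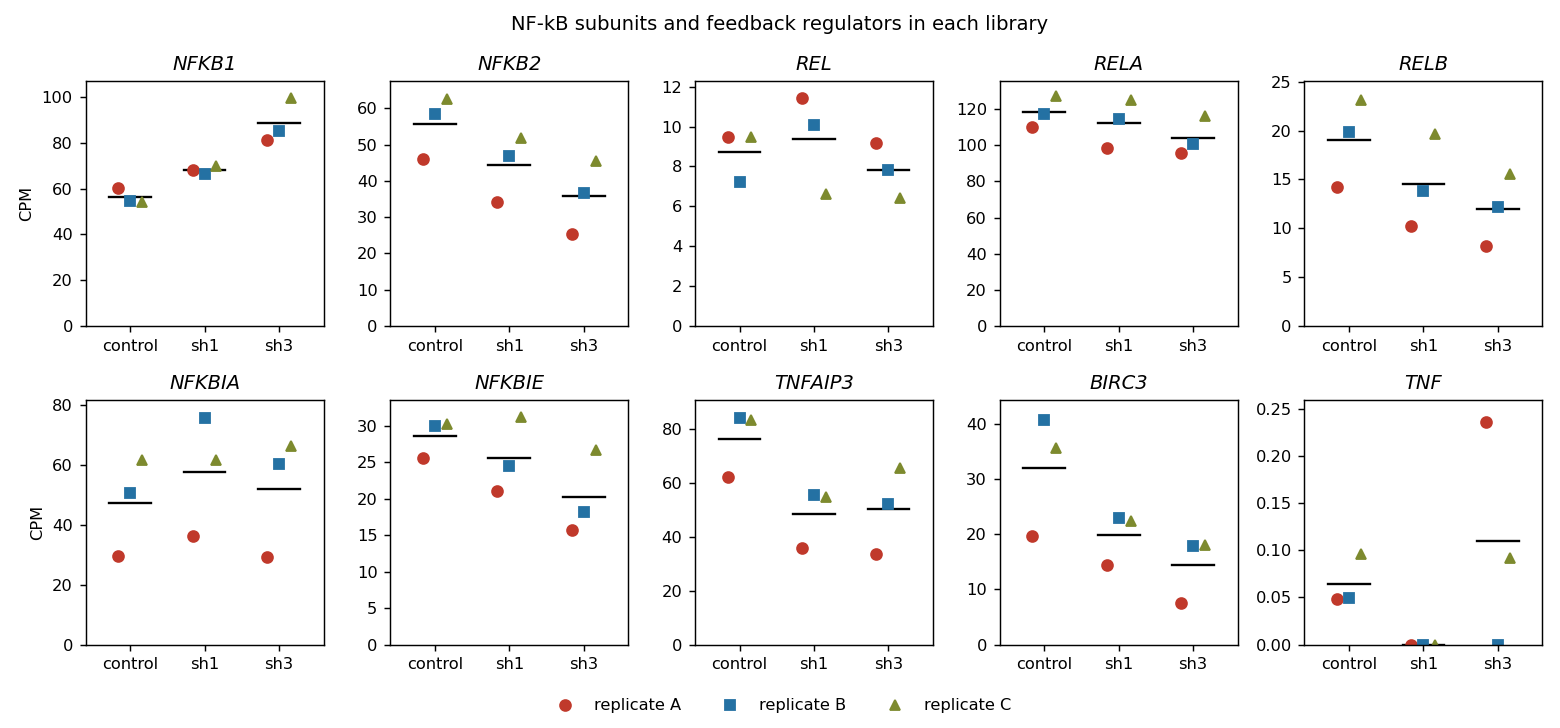
Level of each of the 10 genes in CPM (y axis, from 0, a scale of its own in each panel) in the control, sh1 and sh3 groups, with replicate A as red circles, B as blue squares, C as green triangles and the group mean as a black bar. NFKB1 climbs from control to sh3, whereas in NFKBIA, TNFAIP3, BIRC3, NFKB2, RELB, NFKBIE and RELA the red circle is the lowest point of every group.

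The knockdown comparison asked whether the pathway's own genes changed with MPZL3. NFKB1 rose and TNFAIP3 and BIRC3 fell when both hairpins were read as 1 arm, each by less than 2-fold, and the other 6 tested genes did not pass the test. That is 1 of 9 tested members higher, against 15.9% of all 15975 tested genes, and 2 of 9 lower, against 17%. In this fit, which holds no term for the letter, the share of members called (3 of 9) was near the 33% of all genes that were called. The median log2 fold change was -0.315 over the 9 members and 0.00454 over all genes tested. With the B and C libraries alone, a choice made after seeing the data, 3 members were again called, the same 3. The share of all genes called in that setting is not given. With a term for the letter added to the fit of all libraries, NFKB2 and RELB were called as well, where 36.1% of all genes were. All p-values across genes are from edgeR's quasi-likelihood test, adjusted over all tested genes.

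NFKB1 (ENSG00000109320, chromosome 4, 102501329 to 102617302, plus strand) encodes the p105 precursor of the p50 subunit. It was at 60.29, 54.64 and 54.29 CPM in control A, B and C, at 67.94, 66.49 and 69.97 CPM with sh1 and at 81.38, 85.37 and 99.66 CPM with sh3. All 6 knockdown libraries lay above all control libraries, and all sh3 libraries lay above all sh1 libraries. The pooled log2 fold change was 0.48 (SE 0.132, edgeR adjusted p = 0.0156), that of sh1 was 0.27 (SE 0.0991, adjusted p = 0.0449) and that of sh3 was 0.66 (SE 0.0992, adjusted p = 0.00017). The pooled call was lost without control B (0.45, adjusted p = 0.0692) or control C (0.45, adjusted p = 0.0658). The sh1 call was lost in 9 of its 17 alternatives, 6 of them single libraries left out (control B or C, sh1 A, B or C, or sh3 B, adjusted p up to 0.139), with log2 fold changes of 0.25 to 0.33 throughout, whereas the sh3 call held in all 17.

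RELA (chromosome 11), which encodes the p65 subunit of the main activating dimer, was at 110.2, 117.3 and 127.5 CPM in control, at 98.5, 114.4 and 124.8 CPM with sh1 and at 95.8, 100.7 and 116.2 CPM with sh3. The groups overlapped, and the pooled log2 fold change was -0.13 (95% interval -0.349 to 0.0964, edgeR adjusted p = 0.38). RELA shares its locus with the lincRNA AP001362.2 on the other strand, which had at most 37 counts in a library. REL (chromosome 2) was at 9.491, 7.216 and 9.462 CPM in control, at 11.45, 10.07 and 6.603 CPM with sh1 and at 9.18, 7.846 and 6.444 CPM with sh3. Its libraries spread as widely within groups as between them, and the pooled log2 fold change was -0.02 (95% interval -0.457 to 0.413, edgeR adjusted p = 0.947).

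NFKB2 (chromosome 10) and RELB (chromosome 19) encode the partners of the noncanonical dimer, p100/p52 and RelB. NFKB2 was at 46.05, 58.33 and 62.46 CPM in control, at 34.25, 46.96 and 51.75 CPM with sh1 and at 25.24, 36.76 and 45.39 CPM with sh3. Of the 6 knockdown libraries, 4 lay below all controls, including all 3 of sh3. It fell with sh3 (log2 fold change -0.63, SE 0.2, edgeR adjusted p = 0.0254) and did not pass with sh1 (-0.33, SE 0.198, adjusted p = 0.221) or with both hairpins pooled (-0.47, SE 0.192, adjusted p = 0.0815). The sh3 call was lost without control B, control C, sh3 A or sh3 B, with log2 fold changes of -0.65 to -0.44 and adjusted p of 0.0654 to 0.0942. RELB was at 14.19, 19.81 and 23.13 CPM in control, at 10.19, 13.84 and 19.64 CPM with sh1 and at 8.179, 12.13 and 15.56 CPM with sh3. Its values were ordered alike, with 4 of 6 knockdown libraries below all controls, but no comparison with control passed in these fits, which hold no term for the letter (pooled log2 fold change -0.52, SE 0.241, edgeR adjusted p = 0.124; sh3 -0.66, SE 0.262, adjusted p = 0.0671). With sh3, RELB was called in 9 of 17 alternatives, among them those without control A, sh1 A, sh1 C or sh3 C (log2 fold changes of -0.92 to -0.66), and in the B and C libraries alone (-0.62, adjusted p = 0.00683). Within each letter both genes were below control with both hairpins, at log2 ratios of -0.867 to -0.271 for NFKB2 and -0.795 to -0.236 for RELB.

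NFKBIA (ENSG00000100906, chromosome 14), the gene for IkB-alpha, whose resynthesis ends an NF-kB pulse, was at 29.59, 50.46 and 61.6 CPM in control, at 36.03, 75.5 and 61.57 CPM with sh1 and at 29.13, 60.13 and 66.15 CPM with sh3. The groups overlapped, with 2 knockdown libraries above all controls and 1 below them, and the range within each group exceeded the differences between group means. The pooled log2 fold change was 0.21 (95% interval -0.434 to 0.863, edgeR adjusted p = 0.6247), and its sign turned without control A (-0.03). NFKBIE (chromosome 6), the gene for IkB-epsilon, was at 25.57, 29.96 and 30.25 CPM in control, at 21.07, 24.57 and 31.25 CPM with sh1 and at 15.77, 18.22 and 26.74 CPM with sh3. One sh1 library lay above all controls and 4 of the 6 knockdown libraries lay below them, and neither the pooled value (-0.32, SE 0.186, edgeR adjusted p = 0.225) nor that of sh3 (-0.49, SE 0.188, adjusted p = 0.0584) passed. Without sh1 A, sh1 C or sh3 C the sh3 value passed, at -0.76 to -0.49.

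TNFAIP3 (ENSG00000118503, chromosome 6) was at 62.03, 84.01 and 83.15 CPM in control, at 35.61, 55.5 and 54.58 CPM with sh1 and at 33.72, 52.12 and 65.32 CPM with sh3. Of the 6 knockdown libraries, 5 lay below all controls, and the sixth, sh3 C, lay just above control A. It fell in the pooled comparison (log2 fold change -0.63, SE 0.195, edgeR adjusted p = 0.0275) and with sh1 (-0.65, SE 0.22, adjusted p = 0.0319), and missed the threshold with sh3 (-0.60, SE 0.22, adjusted p = 0.0509), where 9 of 17 alternatives called it, among them those without control A, sh1 A or sh3 C (-0.84 to -0.60). No difference between the hairpins was detected (0.06, 95% interval -0.421 to 0.533, adjusted p = 0.918). Without control B or control C the pooled call was lost (-0.55, adjusted p = 0.116, and -0.56, adjusted p = 0.108), as was that of sh1, which was also lost without sh1 A (-0.47, adjusted p = 0.0992). Compared within a letter, library against library, TNFAIP3 was lower with both hairpins in each of A, B and C, at log2 ratios of -0.88 to -0.348. An antisense gene at the locus, RP11-356I2.4, had at most 32 counts.

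BIRC3 (ENSG00000023445, chromosome 11) was at 19.61, 40.66 and 35.6 CPM in control, at 14.49, 22.99 and 22.34 CPM with sh1 and at 7.532, 17.89 and 18 CPM with sh3. The sh3 libraries all lay below the controls, whereas 2 of the 3 sh1 libraries lay above control A. The pooled log2 fold change was -0.89 (SE 0.296, edgeR adjusted p = 0.0368) and that of sh3 was -1.14 (SE 0.313, adjusted p = 0.0124), the only member difference past 2-fold in these comparisons. With sh1 it was -0.68 (SE 0.307, adjusted p = 0.0992), and it passed there without control A (-0.94, adjusted p = 0.02) or sh3 A (-0.68, adjusted p = 0.0329) and in the B and C libraries alone (-0.74, adjusted p = 5.61e-05). The pooled call was lost without control B, control C, sh1 A, sh3 B or sh3 C (log2 fold changes of -0.91 to -0.68, adjusted p of 0.0508 to 0.187), and the sh3 call without control B (-0.93, adjusted p = 0.0622). Within each letter BIRC3 was lower than control with both hairpins, at log2 ratios of -1.38 to -0.437.

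TNF, the gene for the cytokine that is both a trigger and a target of the pathway, was under the filter. It had 1, 1 and 2 counts in control, 0, 0 and 0 with sh1, and 4, 0 and 2 with sh3. A count of 0 allows up to 3 counts in a library, or 0.129 to 0.153 CPM in the sh1 libraries, a limit that takes account of counting error alone, as PCR copies are not independent molecules. No difference was detectable at this depth (two-sided exact permutation test of mean log2(CPM + 0.5) over 84 arrangements, p = 0.75, smallest possible p 0.0119, n = 6 and 3). No fold is given, since both groups were at the level of single reads.

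Read one hairpin at a time, sh1 gave 1 of 9 tested members higher (18% of all genes were) and 1 lower (19.7% of all genes). With sh3, 1 of 9 was higher (16.6% of all genes) and 2 were lower (18.1% of all genes). The median over the members was -0.156 with sh1 and -0.493 with sh3, both against a median of all genes within 0.003 of 0. Both comparisons used the same 3 control libraries, so their likeness is not independent. With a term for the letter, NFKB2, RELB, BIRC3 and NFKBIA were also called with sh1, where 48.8% of all genes were. That term also brought calls of RELA, RELB, NFKBIE and TNFAIP3 with sh3, where 45.6% of all genes were called.

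**Figure D2:**
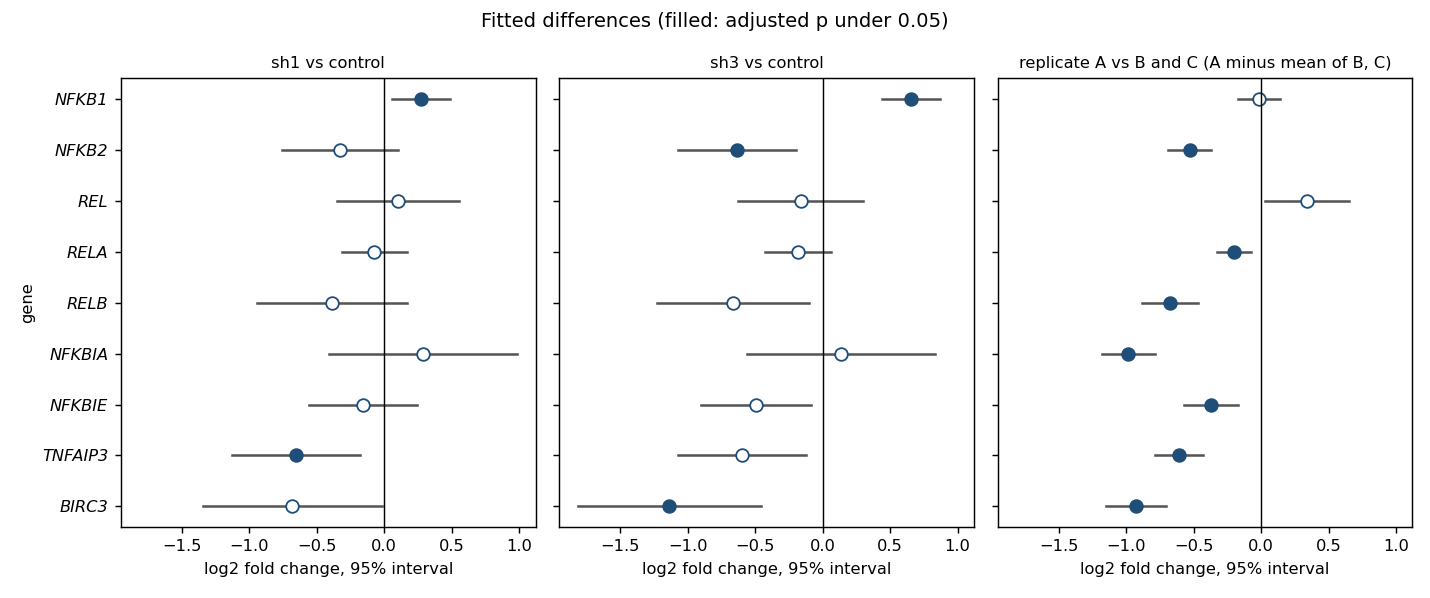
Fitted log2 fold changes (x axis) of the 9 tested genes (y axis) with 95% intervals, for sh1 against control, sh3 against control, and replicate A against the mean of B and C; filled points passed an adjusted p under 0.05. With sh3 the intervals of NFKB2, RELB, NFKBIE, TNFAIP3 and BIRC3 lie wholly below 0, of which only NFKB2 and BIRC3 are filled, and that of NFKB1 lies above it. In the replicate panel the 7 filled genes have their whole interval below 0.

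The hairpins were then compared with each other. NFKB1 was the only member called, higher with sh3 than with sh1 (log2 difference 0.38, SE 0.0987, edgeR adjusted p = 0.023), so 1 of 9 was higher, against 6.33% of all genes, and 0 lower, against 5.3%. The 8 others ranged from -0.45 (BIRC3, 95% interval -1.14 to 0.226) to 0.06 (TNFAIP3). The NFKB1 call was lost without sh1 B, sh1 C, sh3 B or sh3 C, with log2 differences of 0.28 to 0.41 and adjusted p of 0.0508 to 0.124. This fit held no term for the letter. Once that term was added, NFKB2, NFKBIE and BIRC3 were called as well, where 23.1% of all genes were.

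NFKB1 did not stand apart from the genes around it in this comparison. Its 50 nearest expressed neighbours on chromosome 4 (25 on each side, with a mean of at least 10 CPM) had a median log2 difference of 0.371 between sh3 and sh1, with quartiles of 0.295 and 0.468, and 48 of the 50 were above 0. The value of NFKB1 itself exceeded that median by 0.0114. Against control the picture differed, since the neighbours had medians of -0.386 with sh1 and 0.0322 with sh3, and NFKB1 lay 0.659 and 0.623 above them. Whether the shift of the region takes part in the NFKB1 difference between hairpins was not tested. For TNFAIP3 the neighbours had pooled medians of 0.0694, for BIRC3 -0.179 and for NFKB2 0.0205, and these genes lay 0.695, 0.711 and 0.492 below them on the log2 scale.

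**Figure D3:**
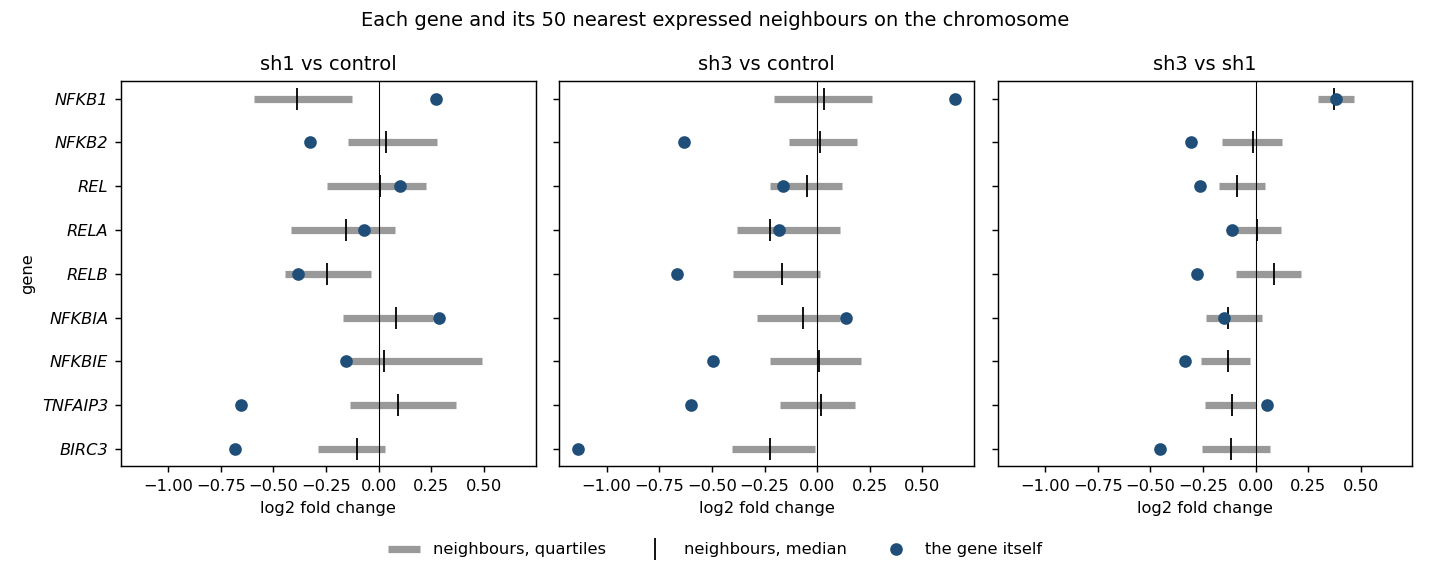
Log2 fold change (x axis) of each tested gene (blue point) and of its 50 nearest expressed neighbours on the chromosome (black tick, median; grey bar, quartiles), for sh1 against control, sh3 against control and sh3 against sh1. In the right panel the point of NFKB1, 0.38, lies on its neighbours' median of 0.371, whereas in the other panels it lies to the right of the grey bar.

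The other axis of the data was the replicate letter. In every group replicate A had the lowest RNA level of NFKBIA, BIRC3, RELB, TNFAIP3, NFKB2, NFKBIE and RELA, and all 7 were called lower in A than in the mean of B and C, in a fit with group and letter as terms. That is 7 of 9 tested members lower, against 10.4% of all genes, and 0 higher, against 10.5%. The median log2 difference was -0.529 over the members and -0.0156 over all genes.

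NFKBIA differed most. It stood in A at 52.8% of the mean of B and C in control, at 52.6% with sh1 and at 46.1% with sh3, so its level in A did not reach that of any B or C library of any group. The fitted log2 difference was -0.99 (SE 0.0916, edgeR adjusted p = 2.92e-05). BIRC3 stood in A at 51.4%, 63.9% and 42% of B and C in control, sh1 and sh3 (log2 difference -0.92, SE 0.104, edgeR adjusted p = 9.61e-05). For these members the step from B and C to A was about as large as, or larger than, the pooled step from control to knockdown. The step of BIRC3 from control to sh3 alone was larger (-1.14).

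RELB was lower in A by 0.67 (SE 0.0957, edgeR adjusted p = 0.000455), TNFAIP3 by 0.61 (SE 0.0832, adjusted p = 0.000364) and NFKB2 by 0.53 (SE 0.0757, adjusted p = 0.000464) on the log2 scale. In TNFAIP3 the share of the B and C mean that A reached was 74.2% in control, 64.7% with sh1 and 57.4% with sh3. NFKBIE was lower by 0.37 (SE 0.0946, adjusted p = 0.0136) and RELA by 0.20 (SE 0.0581, adjusted p = 0.0241), a fall to between 82.4% and 90% of B and C. The calls of NFKBIE and RELA were the least stable: that of NFKBIE was lost without sh1 A or sh3 A (-0.36 and -0.32), and that of RELA without control A, control B, sh1 A, sh1 C, sh3 A or sh3 C (-0.23 to -0.16). A and B alone, compared after seeing the data, gave 5 members called, without NFKBIE (-0.22, adjusted p = 0.229) and RELA (-0.13, adjusted p = 0.26), whereas A and C alone gave all 7. The share of all genes called is not given for these pairs of letters, so both counts lack a background.

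The remaining subunits did not share the pattern. NFKB1 in A was at 111% of the B and C mean in control, 99.6% with sh1 and 88% with sh3 (log2 difference -0.01, 95% interval -0.167 to 0.139, edgeR adjusted p = 0.914). REL was highest in A in all 3 groups, at 114% to 137% of B and C, and did not pass (0.34, SE 0.145, adjusted p = 0.11), except without control C (0.48, adjusted p = 0.0199). Of the 7 genes lower in A, the windows of NFKBIA, TNFAIP3 and BIRC3 held a kB match and those of NFKB2 and RELA held none. The RELA window lies upstream of the RELA start in the count table. RELB and NFKBIE had no window. NFKB1 and REL, which were not called lower in A, held matches. Whether kB matches relate to the letter difference was not tested.

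Between B and C, compared after seeing the data, no member was called (lowest adjusted p = 0.53, edgeR), and of all genes 0.00626% were higher in B and 0.0125% lower. At an unadjusted p under 0.05 there were 4 of 9 members, NFKB2, RELA, RELB and NFKBIE, all lower in B, by 0.15 to 0.36 on the log2 scale, in 3 of 3 groups, where 4.35% of all genes were lower in B and 3.62% higher at that threshold. Other values moved with the letter. Mitochondrial transcripts took 2.75% to 3.03% of the counts in the A libraries and 3.48% to 4.01% in B and C, and the 10 most abundant genes took 5.04% to 5.49% in A and 5.85% to 7.26% in B and C. The summed epithelial and mesenchymal markers were lowest, and the summed immune markers highest, in the A library of each group. The part of these in the letter difference was not tested.

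The balance of both axes differed by gene. In NFKB1, 90.9% of the sum of squares of log2 CPM over the 9 libraries lay between groups and 2% between letters. In NFKBIA it was 5.84% between groups and 89.2% between letters. TNFAIP3, BIRC3, NFKB2 and NFKBIE lay between, with 46.2% to 51.9% between groups and 43.7% to 47% between letters. Letters took the larger share in 4 of the 9 members (NFKBIA, RELA, RELB and REL), and in 27% of all 15975 tested genes. Over all genes the median share was 59.5% for groups and 16.1% for letters.

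**Figure D4:**
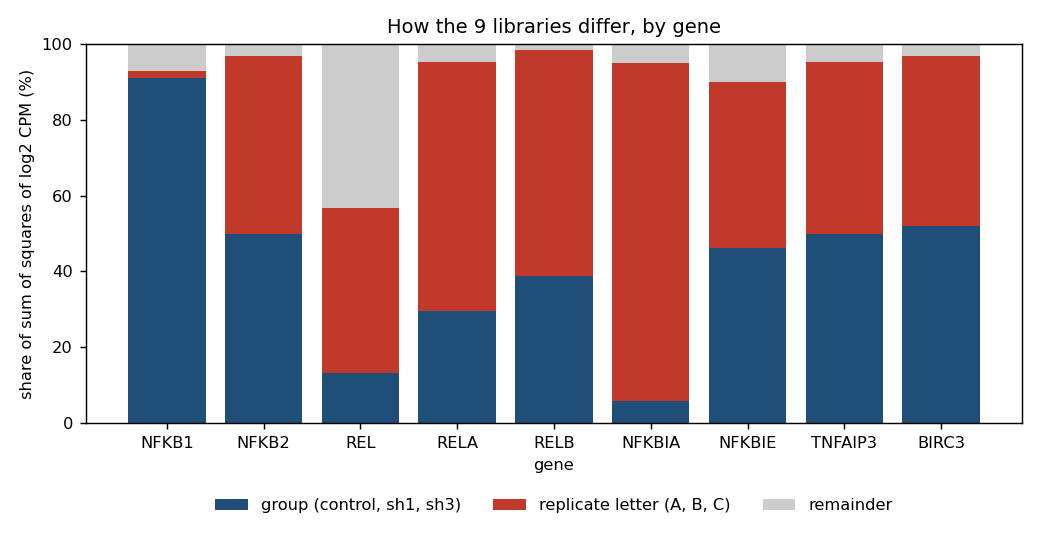
Share of the sum of squares of log2 CPM over the 9 libraries (y axis, percent) that lay between the groups (blue), between the replicate letters (red) and in the remainder (grey), for each tested gene. NFKB1 is almost wholly blue at 90.9%, and NFKBIA almost wholly red at 89.2%.

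After the group means were subtracted, the regulators and noncanonical subunits ran together over the 9 libraries, which share the 3 letters. Pearson's r was 0.985 between NFKB2 and TNFAIP3, 0.965 between NFKB2 and RELB, 0.951 between NFKBIA and TNFAIP3 and 0.945 between NFKBIA and BIRC3, given as a description. The r of NFKB1 with the 6 genes NFKB2, RELB, NFKBIA, NFKBIE, TNFAIP3 and BIRC3 was lower, at 0.143 to 0.617, and that of REL with them was -0.847 to -0.523. The 3 genes nearest to NFKBIA by this measure, of 9685 candidates, were TGIF1, ZC3H12A and ZBTB22 (r 0.9963 to 0.9973). The nearest to TNFAIP3 was IER3 (r 0.9959), to RELB it was KDSR (0.9963), to RELA HLA-E (0.9926), to NFKB2 JUP (0.9927), to NFKBIE MGAT4B (0.9862), and to REL PCDHGC3 (0.9752). ZSCAN9 (0.9908) and CXCL1 (0.9895) were nearest to BIRC3. For NFKB1 it was ELK3, which encodes an ETS-family factor, both with group means removed (0.9967) and in the levels themselves (0.9984).

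The rest of the pathway was read from lists of its parts, 119 genes without the members, of which 104 were tested. In the knockdown arm 27 of the 104 were called higher and 23 lower, with a median log2 fold change of 0.0217, against 15.9% higher and 17% lower among all genes. The parts nearest to the members changed in both directions. Of 6 other IkB proteins and their partners, 2 rose and 2 fell: NFKBIZ, a nuclear IkB that acts with the p50 subunit, rose (log2 fold change 1.65, SE 0.304, edgeR adjusted p = 0.00131) and so did BCL3, another nuclear IkB (1.04, SE 0.251, adjusted p = 0.0075). NFKBID (-0.85) and NFKBIB, the gene for IkB-beta (-0.49), fell.

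Upstream, 3 of 13 IKK subunits, activating kinases and their adaptors rose and 3 fell. The kinase MAP3K3 (log2 fold change 0.72) and the receptor-interacting kinase RIPK1 (0.32) were higher, and TAB3 (-0.95), an adaptor of the TAK1 kinase, and RIPK2 (-0.91), the kinase of the NOD receptors, were lower. Of 15 tested TRAF and ubiquitin adaptors, 3 rose, among them the paracaspase MALT1 (0.69) and TRAF5 (0.48), and 1 fell, SHARPIN (-0.36), a part of the linear ubiquitin ligase. Of 10 tested deubiquitinases and partners of A20, ZFAND5 rose (0.63) and the ubiquitin ligase ITCH fell (-0.44).

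At the cell surface, 2 of 18 receptors rose and 7 fell. TLR4 (log2 fold change 1.22) and IL1RAP (1.08), the shared chain of the interleukin-1 receptors, were higher, and the death receptor TNFRSF21 (-3.73, SE 0.128, edgeR adjusted p = 1.53e-09) and TLR2 (-2.23) were lower. Among 11 tested ligands, 4 rose and 3 fell. IL1B was at 9.862 CPM in control, 129.7 with sh1 and 162.7 with sh3 (3.89, SE 0.634, edgeR adjusted p = 0.000531), and IL1A, the other agonist of that receptor, was higher as well (3.19). TNFSF15 (-4.98) and IL18 (-1.18) were lower.

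Of 31 tested target genes of NF-kB, 12 rose and 6 fell, with a median of 0.307. CXCL1, a neutrophil chemokine, was at 47.2 CPM in control, 505.1 with sh1 and 649.4 with sh3 (log2 fold change 3.61, SE 0.742, edgeR adjusted p = 0.0027), and CXCL3 rose by 3.69 (SE 0.579). LCN2, which encodes an iron-siderophore binding protein, was at 221.9 CPM in control and at 0.4129 and 0.7859 CPM with sh1 and sh3 (-8.55, SE 0.473, adjusted p = 7.35e-08), and F3, the gene for tissue factor, fell by 1.44 on the log2 scale.

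By letter the lists split otherwise. Of the 31 target genes, 24 were lower in A, against 10.4% of all genes, and 0 higher, against 10.5%. The median log2 difference over the 31 was -0.555, and 11 of the 24 were past 2-fold, where 1.04% of all genes were. They included CXCL1 (-2.26, SE 0.15, edgeR adjusted p = 5e-06), LCN2 (-1.84), CXCL3 (-1.53) and, named after its values were seen, CXCL8 (-2.18). Of the 12 target genes that rose in the knockdown arm, 11 were lower in A, of the 6 that fell, 1 was, and of the 13 that were not called there, 12 were. IL1B (-1.54) and IL1A (-1.002) were lower in A too, as was NFKBIZ (-0.92). Of the 18 receptors, 1 was lower in A and 0 higher, and of the 13 IKK subunits, activating kinases and their adaptors 3 were higher and 0 lower. Whether these small counts differ from the shares of all genes was not tested. Between B and C, 0 of the 31 target genes and 0 of the 104 pathway genes passed.

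**Figure D5:**
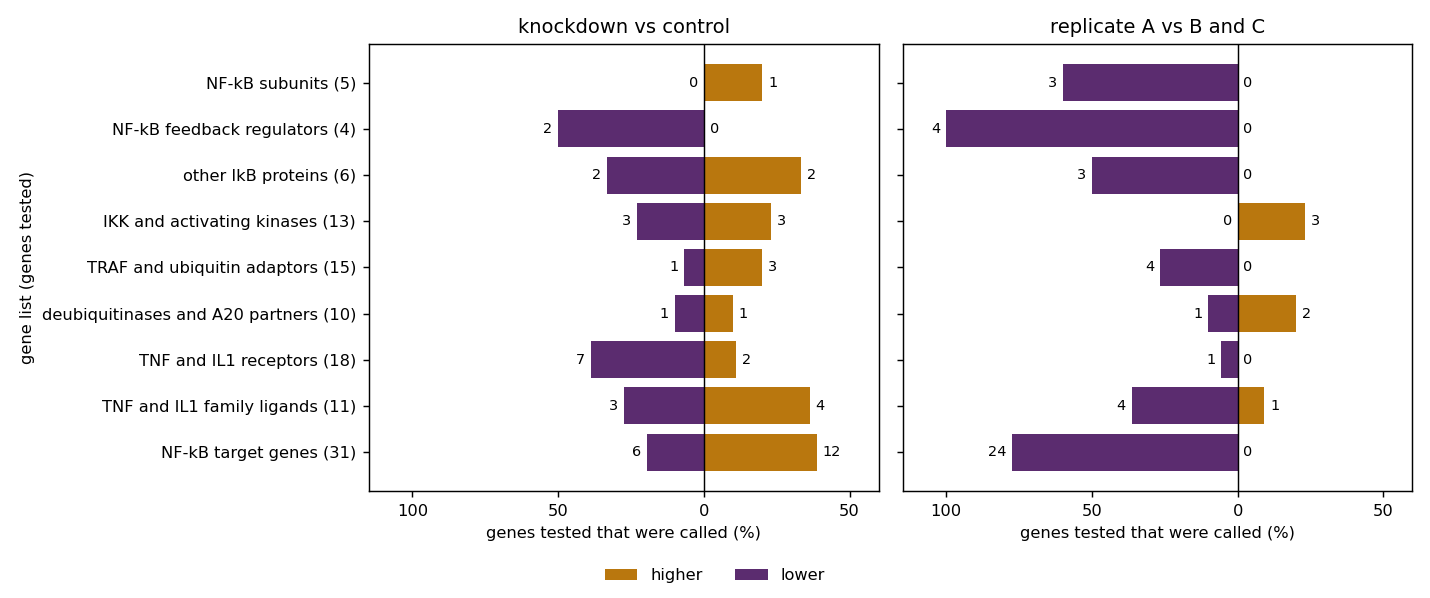
Share of the tested genes of each list (x axis, percent; number tested after the list name) called higher (ochre, to the right) or lower (purple, to the left), for the knockdown arm against control and for replicate A against B and C; the numbers at the bars are gene counts. Both colors appear in most lists on the left, whereas on the right the target genes (24 of 31) and the feedback regulators (4 of 4) lie to the purple side.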

How the data were processed

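RNA of 9 OVCA433 libraries (3 control, 3 sh1, 3 sh3; groups and letters from the sample titles) was sequenced from poly(A)-selected, non-directional libraries, so reads from a gene and an antisense partner cannot be told apart. The authors deposited raw read counts per gene, unnormalized. The submitters' processing notes name hg38, HISAT2 2.0.5 and featureCounts 1.5.0-p3, and the authors used DESeq2 for their own tests. No row of the table lacked a gene name.

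Genes were filtered with filterByExpr (minimum count 10, minimum total 15), which kept 15975 genes with 99.889% of the counts, scaled by TMM, and tested with edgeR 4.0.16 (glmQLFit, glmQLFTest) in R 4.3.3. P-values were adjusted by Benjamini-Hochberg over all 15975 genes, and a gene was called at an adjusted p under 0.05. The pooled comparison used 1 knockdown arm, each hairpin a 3-group model, and the letters a model with group and letter, whose contrast is A minus the mean of B and C. SE is the fold change over the root of F. CPM use effective library sizes. The biological coefficient of variation was 18.17%, 13.06% and 8.299% in the arm, 3-group and letter models. Scripts were tested on simulated data. Promoter windows are from RefSeq (GRCh38.p14).

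Every member was named. From each other list, the called genes with the 2 largest rises and 2 largest falls and at least 1 CPM on average were named. Nearest genes were ranked by Pearson correlation of log2 CPM among genes averaging 10 CPM or more. The members and lists were chosen with earlier results of these data known.

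Alternatives were no filter, a 1 CPM filter, DESeq2 size factors, library totals, DESeq2 1.42.0, a 2-fold or 0.01 threshold, each library left out, a replicate block, a 3-group or smaller fit, and, added after seeing the data, the B and C libraries alone and A against B or C alone.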

Additional observations from a re-analysis of the deposited data

Results flagged for a closer look

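NFKB1 differed between the hairpins: its log2 difference between sh3 and sh1 was 0.38 (edgeR adjusted p = 0.023), with all 3 sh3 libraries above all 3 sh1 libraries. The direct test of the difference passed, beside a median of 0.371 over its 50 neighbouring genes.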

How the results depend on the processing

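Over 765 alternative values of the member fold changes, 661 kept their direction and side of the threshold, 41 dropped below it, 44 passed it and 19 changed sign; for the losses and gains the cause was not tested. With a 2-fold threshold the called members were 0 (pooled), 0 (sh1), 1 (sh3), 0 (sh3 against sh1) and 0 (letters), and the pathway genes 29 (pooled). Of all genes, 14.7%, 16.3%, 15.3%, 3.93% and 1.04% were called at that threshold, in the same order. At an adjusted p under 0.01 the called members were 0 pooled, 0 with sh1, 1 with sh3 and 0 between hairpins. By letter NFKBIA, BIRC3, TNFAIP3, RELB and NFKB2 passed it (edgeR adjusted p of 2.92e-05 to 0.000464), and NFKBIE and RELA did not. Library totals gave 1 member with sh1. No filter gave 6 with sh3 and 2 between hairpins, DESeq2 gave 6 with sh3, and sh3 and control alone gave 5, as did the B and C libraries alone. Shares of all genes called are not given for the settings after the 2-fold threshold, for single libraries left out or for pairs of letters. Those member counts therefore have no background beside them.

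Leaving out 1 library gave 0 to 5 members pooled, 0 to 3 with sh1, 1 to 6 with sh3, 0 to 1 between hairpins and 5 to 8 by letter. Signs turned in values that were never called. NFKB1 by letter was 0.0062 with library totals and 0.036 for A against B. Without 1 library at a time, values ran from -0.141 to 0.0429 for REL pooled, -0.0714 to 0.297 for REL with sh1, -0.158 to 0.0153 for RELA with sh1, -0.0327 to 0.453 for NFKBIA pooled, -0.11 to 0.42 for NFKBIA with sh3, -0.40 to 0.13 for NFKBIA, -0.19 to 0.28 for TNFAIP3 and -0.53 to 0.0046 for RELB between hairpins, and -0.0936 to 0.0698 for NFKB1 by letter.

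The letters were not taken to pair libraries in the main knockdown and hairpin fits, a choice that these values do not support. Same-letter deviations correlated at 0.0373 to 0.361 (9 pairs, 1 of them under 0.1), other pairs at -0.322 to 0.132. Of the 9 libraries, 7 correlated best with their own letter. Of all genes, 21% were called for A against B and C, and 0.0188% for B against C. Differences between letters therefore stay in the spread of the main fits, and members that missed the threshold there are read beside the block. With the replicate block, 5 members were called pooled, 6 with sh1, 7 with sh3 and 4 between hairpins, where 36.1%, 48.8%, 45.6% and 23.1% of all genes were. The members gained were NFKB2 and RELB pooled, NFKB2, RELB, BIRC3 and NFKBIA with sh1, RELA, RELB, NFKBIE and TNFAIP3 with sh3, and NFKB2, NFKBIE and BIRC3 between hairpins, and none was lost. TNF could not be tested across genes at this depth.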
